A study of Mus musculus with 16 samples.

Results

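The collagen genes and the genes of the enzymes that modify collagen were followed in pieces of mouse fallopian tube kept in culture with or without progesterone. Genes were taken by symbol: every collagen chain, the P4ha, Plod, Lox and Loxl genes, and P4hb, Serpinh1 and Lepre1. The array table of 25697 probes held 73 probes for 49 such genes, and 40 genes with 52 probes passed the filter on dim probes (a detection p under 0.5 on at least 13 of 16 arrays), among 12426 genes and 16848 probes that passed it in all. The 40 genes were 30 collagens and 10 genes of enzymes and of a chaperone, and each was represented by its brightest kept probe.

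Tubes came from immature female C57BL/6N mice of 3.5 to 5 weeks that had received no hormones. Control samples were kept in medium with 0.01% ethanol, and progesterone samples in the same medium with 100 nmol/L progesterone and 0.01% ethanol, for 20 min or for 2 h. Each of the 4 groups had 4 samples of 6 pooled tubes, and every control sample had a progesterone partner, which made 4 pairs at each time point. The pairs of 20 min carried the codes 27n, 26n, 12n and 22ob and those of 2 h the codes 6d, 19n, 30o and 15o, so that no pair spanned both times and a time difference cannot be told apart from a difference between mice. The samples were whole tubes, in which fewer cells of a type and less RNA per cell cannot be told apart.

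Collagens are triple helices of alpha chains that carry much of the extracellular matrix. Types I, III and V form fibrils of the stroma, type IV forms the network of basement membranes, and type VI forms beaded filaments. In the endoplasmic reticulum, prolyl 4-hydroxylase modifies prolines that stabilize the helix. Its catalytic alpha subunit is encoded by P4ha1, P4ha2 or P4ha3, and its beta subunit, protein disulfide isomerase, by P4hb. Lepre1 (now P3h1) encodes a prolyl 3-hydroxylase, the Plod genes encode lysyl hydroxylases, Serpinh1 encodes the collagen chaperone Hsp47, and Lox and its relatives encode the secreted oxidases that cross-link the finished fibrils. In the tube the fibrillar collagens belong mainly to the stroma and muscle wall beneath the ciliated and secretory epithelium. P4ha1 and P4ha2 are also known as genes that respond to hypoxia.

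The promoters of the alpha subunit genes P4ha2 and P4ha1 are shown. The mean progesterone differences of these genes at 2 h had opposite signs, though the main test called neither gene. The letters are the 250 bases before the transcription start, from RefSeq on GRCm38.p6, plus strand, with the motif ACGTG or its complement CACGT, a core of hypoxia response elements, in capitals.
P4ha2, chr11:54100674-54100923: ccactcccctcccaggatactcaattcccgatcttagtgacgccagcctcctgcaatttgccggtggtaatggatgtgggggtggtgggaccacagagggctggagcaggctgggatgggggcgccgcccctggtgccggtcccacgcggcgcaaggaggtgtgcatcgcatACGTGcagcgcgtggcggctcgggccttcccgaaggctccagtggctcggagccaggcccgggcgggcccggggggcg
P4ha1, chr10:59323046-59323295: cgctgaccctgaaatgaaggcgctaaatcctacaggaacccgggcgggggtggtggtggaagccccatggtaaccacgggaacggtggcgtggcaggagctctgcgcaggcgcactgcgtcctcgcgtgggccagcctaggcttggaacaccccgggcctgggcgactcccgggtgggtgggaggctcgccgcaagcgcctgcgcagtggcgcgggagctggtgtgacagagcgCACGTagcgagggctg
Each held the motif in this exact form in 1 place, and other forms of the core were not counted. On both strands the motif occurred in 16.6% of 32851 promoters of this length and in 10 (28.6%) of the 35 promoters listed for 31 of the 40 genes. The motif AGNACA or TGTNCT, a hexamer bound by receptors of steroid hormones, occurred in 44.7% of all promoters, in 8 (22.9%) of those 35, and in neither of the sequences above. Whether these shares differ was not tested.

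Of the 40 genes, 26 were detected (detection p under 0.05) on all 16 arrays. These were 16 collagens and all 10 enzyme and chaperone genes. The other 14 collagens, among them Col2a1, Col9a1, Col14a1 and Col17a1, were not above background on at least 1 array. Col4a6, detected on 14 arrays, ranged from 6.84 to 8.25 over the 16 samples, and the other 13 spanned between 0.16 and 0.76 on the log2 scale. The 9 genes without a kept probe were Col10a1, Col13a1, Col19a1, Col27a1, Col28a1, Col9a3, Loxl3, Loxl4 and P4ha3. At the border of the filter, a probe of Col17a1 passed on 13 arrays (mean log2 signal 6.89), and another of the same gene was left out with 12 arrays (6.90). P4ha2 has 1 probe on the array. The probes that stand for Col1a1, Col2a1, Col4a5 and Col5a3 carry the symbol but no definition in the table. Markers of the tube were detected on all arrays for 7 ciliated cell markers of 10 listed (7 kept by the filter), 7 secretory epithelium markers of 10 (8 kept) and 9 smooth muscle markers of 12 (10 kept). The same held for 7 of 10 fibroblast and 8 of 10 endothelial markers. Of other tissues, 5 blood markers of 9 listed (6 kept) and 3 mesothelium markers of 6 (5 kept) were detected on all arrays, and so were 1 fat marker of 8, 1 skeletal muscle marker of 8 and 0 ovary markers of 10.

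P4ha2 was higher with progesterone at 2 h and lower in the controls of 2 h than in those of 20 min. Its log2 signals in the 2 h controls were 7.88, 7.77, 7.81 and 7.82 (pairs 6d, 19n, 30o and 15o). In their progesterone partners they were 8.30, 8.42, 8.22 and 8.05. The 2 groups did not overlap, and all 4 pairs moved up. The mean difference was 0.43 on the log2 scale (95% confidence interval 0.23 to 0.62, n = 4 pairs), a fold of 1.34. P4ha2 was the only one of the 40 genes whose groups did not overlap with progesterone higher, as did 0.805% of all genes. The study listed P4ha2 at 2 h from these same arrays, so this is a description and not independent evidence.

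The test across all genes did not call P4ha2 at 2 h (limma with pairs as blocks, unadjusted p = 0.00084, adjusted p = 0.9997, threshold 0.20). A fit of all 16 samples with the pair as a random block called it (limma, adjusted p = 0.0485), as did paired SAM (q = 0.0833). Background correction by normexp gave a difference of 0.68 with no call.

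At 20 min P4ha2 did not separate. The controls read 8.25, 8.15, 8.15 and 8.11 (pairs 27n, 26n, 12n and 22ob), and the progesterone samples 8.06, 8.26, 7.99 and 8.001. The difference was -0.08 (95% confidence interval -0.24 to 0.07), with pair 26n alone higher. The effects at the 2 times differed by 0.51 (95% confidence interval 0.27 to 0.75, unadjusted p = 0.00053, limma adjusted p = 0.990).

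Between the times, P4ha2 fell by 0.34 in the controls (95% confidence interval -0.47 to -0.21, limma adjusted p = 0.00588, threshold 0.05). Every 2 h control lay below every 20 min control, as in 9.01% of all genes, and P4ha2 was the only one of the 40 that did so. Without normalization between arrays the difference was -0.60, where the median of all genes was -0.18, and after normexp it was -0.55, both with a call. In the progesterone samples the difference was 0.17 (-0.04 to 0.38, adjusted p = 0.275). The progesterone samples of 2 h thus lay at 8.25 ± 0.16 (SD, n = 4), near the 20 min controls at 8.16 ± 0.06, with the 2 h controls at 7.82 ± 0.05 standing lower. The same 2 h controls enter the progesterone difference at 2 h, the difference between the effects and the fall in the controls. These are therefore not separate results.

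**Figure D1:**
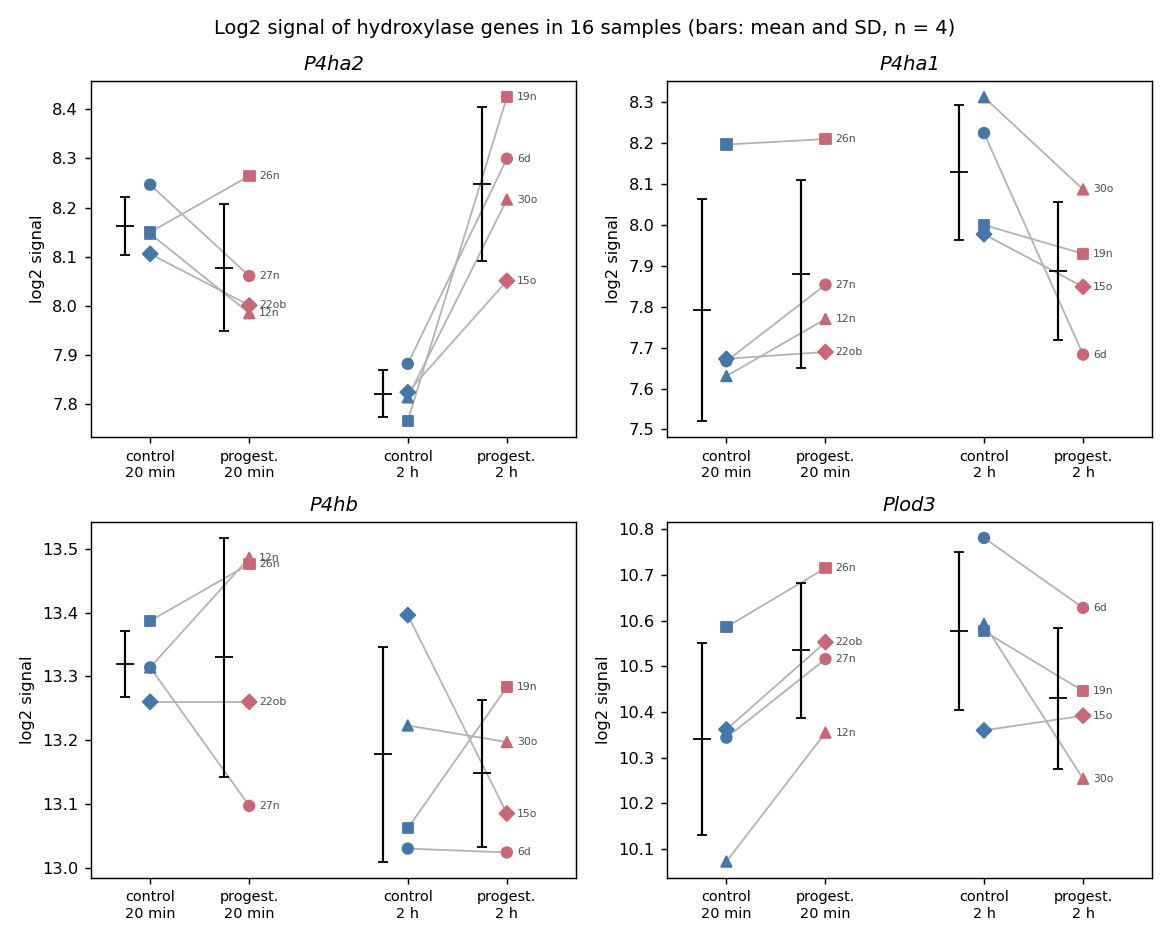
Log2 signal (y axis) of 4 hydroxylase genes in each of the 16 samples, by group (x axis). Blue points are controls, red points progesterone samples, grey lines join the pairs, and black bars give the group mean and SD (n = 4). The 2 h controls of P4ha2 lie between 7.77 and 7.88, below all other samples of that gene, while P4ha1 was lower with progesterone in all 4 pairs of 2 h.

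P4ha1, the other detected alpha subunit, had the opposite sign at both times. At 20 min its controls read 7.67, 8.20, 7.63 and 7.67 and its progesterone samples 7.85, 8.21, 7.77 and 7.69, in the order of pairs above. All 4 pairs were higher, by a mean of 0.09 (95% confidence interval -0.05 to 0.23). At 2 h the controls read 8.22, 8.0, 8.31 and 7.98 and the progesterone samples 7.68, 7.93, 8.09 and 7.85. All 4 pairs were lower, with a mean of -0.24 (-0.45 to -0.03, unadjusted p = 0.027, limma adjusted p = 0.9997), and the groups overlapped. The mean was -0.14 without pair 6d, -0.16 without normalization and -0.39 after normexp, with no call in any of them. Only P4ha1 and Col9a1, of the 40 genes, turned from higher in 4 pairs to lower in 4 pairs, as did 0.467% of all genes. The difference between the effects was -0.33 (-0.57 to -0.09, unadjusted p = 0.011, adjusted p = 0.999). In the controls, whose 2 h samples also enter the progesterone difference, P4ha1 was 0.34 higher at 2 h than at 20 min without passing the test (0.03 to 0.64, adjusted p = 0.154). The 20 min control 26n stood apart from its group, and without it that difference passed the threshold.

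P4hb, the beta subunit, is known to have other roles in protein folding besides that in prolyl hydroxylation. Its group means were 13.32 and 13.33 at 20 min and 13.18 and 13.15 at 2 h, control before progesterone. The progesterone differences were 0.01 (-0.15 to 0.17) and -0.03 (-0.24 to 0.18), and neither passed the test. Lepre1 differed by 0.03 (-0.10 to 0.16) and 0.01 (-0.16 to 0.18), and its 3 kept probes disagreed in sign at 2 h. Of the 4 prolyl hydroxylase genes, P4ha2 and P4ha1 thus had opposite signs at 2 h, while the intervals of P4hb and Lepre1 held both signs.

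Among the lysyl hydroxylases, Plod3 was higher with progesterone in all 4 pairs of 20 min. Its controls read 10.34, 10.59, 10.07 and 10.36 and the progesterone samples 10.52, 10.71, 10.36 and 10.55. The groups overlapped because the pairs differed more from each other than the samples within them. The mean difference was 0.19 (95% confidence interval 0.06 to 0.33, unadjusted p = 0.0085, limma adjusted p = 0.948). At 2 h it was -0.15 (-0.33 to 0.03), lower in all pairs but 15o, and the effects differed by -0.34 (-0.55 to -0.13, unadjusted p = 0.0036, adjusted p = 0.999). Plod1 differed by 0.06 and 0.09 and Plod2, which hydroxylates lysines of the telopeptides, by -0.05 and 0.05 at the respective times, with intervals that included 0.

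The chaperone gene Serpinh1 differed by -0.02 (-0.28 to 0.23) at 20 min and by -0.04 (-0.37 to 0.28) at 2 h. The cross-linking oxidase genes spread more widely. Lox differed by 0.11 (-0.12 to 0.34) and -0.14 (-0.68 to 0.40), and Loxl1, which is needed for elastic fibres, by 0.09 (-0.08 to 0.27) and -0.02 (-0.48 to 0.43). In pair 19n Lox was 8.50 in the control and 7.51 with progesterone, and in pair 15o it was 7.55 and 8.40. These pairs moved in opposite directions, as the collagens did.

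Over the 40 genes, progesterone gave no call at either time. At 20 min limma called 0 of them (0% of all genes were called) and 2, Col15a1 and Plod3, had an unadjusted p under 0.05 (5.28% of all genes). All 4 pairs were higher for 4 genes, Col4a6, Col9a1, P4ha1 and Plod3 (6.56% of all genes), and lower for 1, Col9a2 (6.43%). At 2 h limma again called 0 (0.00805% of all genes), paired SAM called 1, P4ha2, and P4ha1 and P4ha2 had an unadjusted p under 0.05 (2.67%). P4ha2 was higher in 4 of 4 pairs (4.81%), and P4ha1 and Col9a1 were lower in 4 of 4 (5.45%). The effects at the 2 times differed for 0 genes (0.00805%), and 3 had an unadjusted p under 0.05, namely P4ha1, P4ha2 and Plod3 (4.12%). As shares of the 40 genes, those with an unadjusted p under 0.05 were 5% at 20 min (5.28% of all genes) and 5% at 2 h (2.67%). For the difference between times they were 7.5% (4.12%). The genes higher in all 4 pairs of 20 min were 10% (6.56%). Each count rests on at most 4 genes, and whether the shares differ from those of all genes was not tested.

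Most detected collagens were slightly higher with progesterone at 20 min, about as many were higher as lower at 2 h, and the pairs spread widely. The median difference over the 16 genes was 0.11 at 20 min, with 15 higher, and -0.02 at 2 h, with 7 higher. Leaving out pair 26n moved the 20 min median to 0.23, leaving out 27n to 0.07 and 22ob to 0.07, with 12 to 14 genes higher whichever pair was left out. Many of the genes moved together within a pair, so these counts of genes rest on 4 pairs at each time. Of the 20 min pairs, 26n had a median of -0.18 with 13 of the 16 lower. Over all genes the medians were 0.00 at both times, with 6300 of 12426 higher at 20 min and 6090 at 2 h. None of the 16 passed the test. Of the fibrillar chains, Col1a1 differed by 0.19 (-0.04 to 0.43) at 20 min and -0.05 (-0.85 to 0.76) at 2 h, Col1a2 by 0.21 (-0.06 to 0.48) and 0.20 (-0.21 to 0.61), and Col3a1 by 0.04 (-0.22 to 0.30) and -0.03 (-0.49 to 0.44). Col5a1, which joins type I fibrils, differed by 0.23 (-0.01 to 0.47) and 0.07 (-0.54 to 0.68). The basement membrane chains Col4a1 and Col4a2, encoded side by side, differed by 0.13 (-0.05 to 0.31) and 0.17 (-0.05 to 0.40) at 20 min and by -0.01 (-0.72 to 0.69) and -0.05 (-0.75 to 0.66) at 2 h. Col15a1, of the basement membrane zone, had the smallest p of the collagens at 20 min with 0.20 (0.02 to 0.38, limma adjusted p = 0.948). The intervals at 2 h were wider than those at 20 min for each of these chains.

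**Figure D2:**
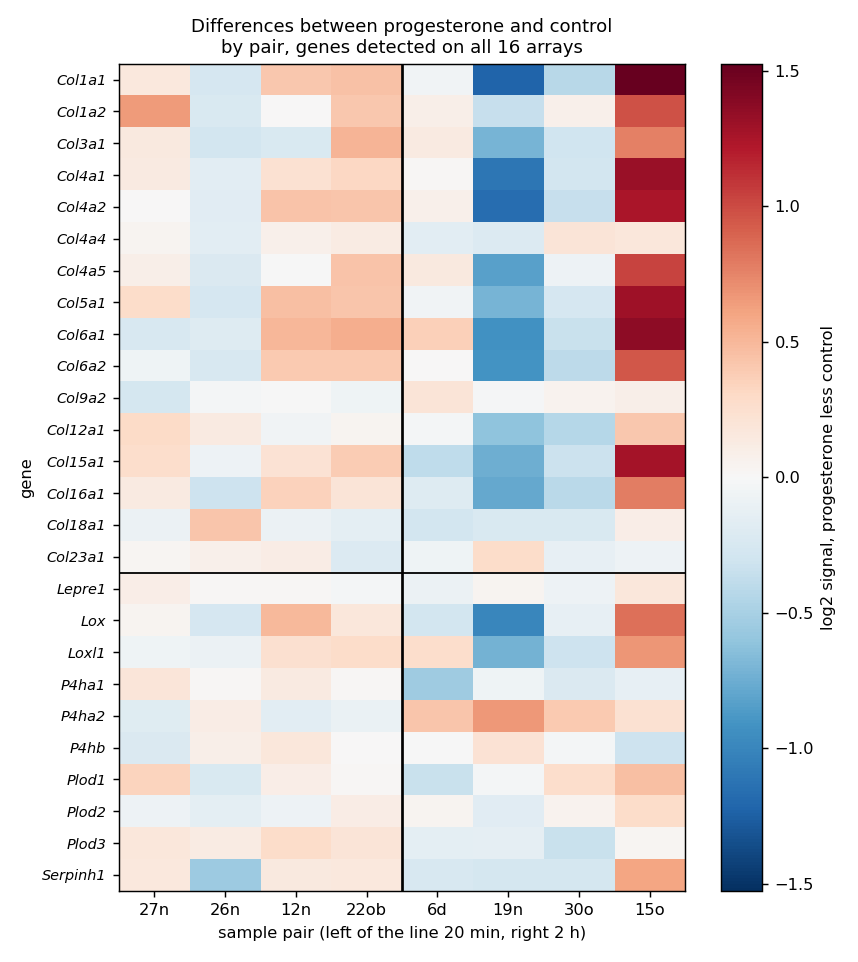
Difference in log2 signal between the progesterone and the control sample (colour scale) for the 26 genes detected on all 16 arrays (rows, collagens above the line and enzymes below) in each of the 8 pairs (columns, 20 min to the left of the line and 2 h to the right). Most collagens are blue in pair 19n and red in pair 15o, while P4ha2 is red in all 4 pairs of 2 h.

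Within some pairs most collagens lay on 1 side of 0, and the side differed between pairs. At 20 min the median over the 16 genes was 0.11 in pair 27n, -0.18 in 26n, 0.16 in 12n and 0.40 in 22ob. At 2 h it was -0.01 in 6d, -0.73 in 19n, -0.29 in 30o and 0.96 in 15o. In 19n 15 of the 16 were lower with progesterone and in 15o 15 were higher, whereas in 6d 8 were higher and 8 lower. In 30o and in 26n 13 were lower, and 12, 11 and 13 were higher in 27n, 12n and 22ob. The difference was the highest of the 4 in pair 15o for 13 genes and the lowest in 19n for 14. Without pair 15o the median at 2 h was -0.32, with 14 genes lower. Without 19n it was 0.19, with 13 higher, without 30o it was 0.06, with 12 higher, and without 6d it was 0.0016, with 8 higher. The sign of the median at 2 h thus changed with the pair left out.

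The median SD of the pair differences was 0.279 for the detected collagens at 20 min and 0.714 at 2 h, against 0.131 and 0.156 for all genes. For the enzyme and chaperone genes it was 0.152 and 0.214. At 2 h the SD was 0.177 for P4ha2, and some detected collagens had similar or smaller values (Col9a2 0.092, Col18a1 0.179 and Col23a1 0.186). The differences of P4ha2 were 0.42, 0.66, 0.40 and 0.23 in 6d, 19n, 30o and 15o, with the largest in the pair where most collagens were lower.

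Smooth muscle, fibroblast and endothelial markers had medians of the same sign as the collagens in all 8 pairs. So had 16 proteoglycans and glycoproteins that bind fibrils, with 0.04, -0.0046, 0.15 and 0.18 at 20 min and -0.15, -0.24, -0.25 and 0.64 at 2 h. Some of these medians lay close to 0 with a split list. In 27n 5 of 10 fibroblast markers were higher, and in 26n 4 of 10 endothelial markers and 7 of the 16 proteoglycans and glycoproteins. The median over 10 smooth muscle markers, among them Myh11, Acta2 and Lmod1, was 0.07, -0.13, 0.27 and 0.18 in the 20 min pairs and -0.06, -0.92, -0.34 and 1.42 in the 2 h pairs, in the orders above. All 10 were lower with progesterone in 19n and in 30o and higher in 15o. In the 20 min pairs the fibroblast markers gave 0.0012, -0.11, 0.17 and 0.18 and the endothelial markers 0.02, -0.02, 0.28 and 0.12. At 2 h the fibroblast markers gave medians of -0.22 in 6d, -0.31 in 19n, -0.21 in 30o and 0.51 in 15o, with 0, 1, 1 and 10 of 10 higher. Endothelial markers gave -0.20, -0.28, -0.14 and 0.56, with 1, 1, 2 and 10 of 10 higher. In 6d both lists were thus mostly lower, as were the smooth muscle markers with 3 of 10 higher, while the collagens were evenly split. Ciliated cell markers gave 0.18, -0.37, -0.12 and -0.21, and secretory epithelium markers 0.08, -0.14, 0.04 and -0.15. Fat markers gave 0.06, -0.05, -0.22 and 0.91, and blood markers -0.09, 0.06, -0.14 and 0.41. Mesothelium markers went the other way at 2 h, with 0.04, 0.11, 0.29 and -0.32, and 5 of 5 were higher in 19n and 30o and 0 of 5 in 15o. In the 20 min pairs ciliated cell markers gave 0.07, 0.37, -0.04 and 0.14, with 7 of 7 higher in 26n. Secretory epithelium markers gave 0.14, 0.11, -0.07 and -0.06 there, and mesothelium markers -0.17, 0.32, -0.32 and 0.02. Fat markers gave 0.31, -0.0038, 0.03 and -0.05 at 20 min, and blood markers 0.097, -0.08, -0.03 and 0.05. The part of these cell types in the collagen differences was not tested. The methods state that ligaments, fat and vessels were removed before the tubes were opened.

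**Figure D3:**
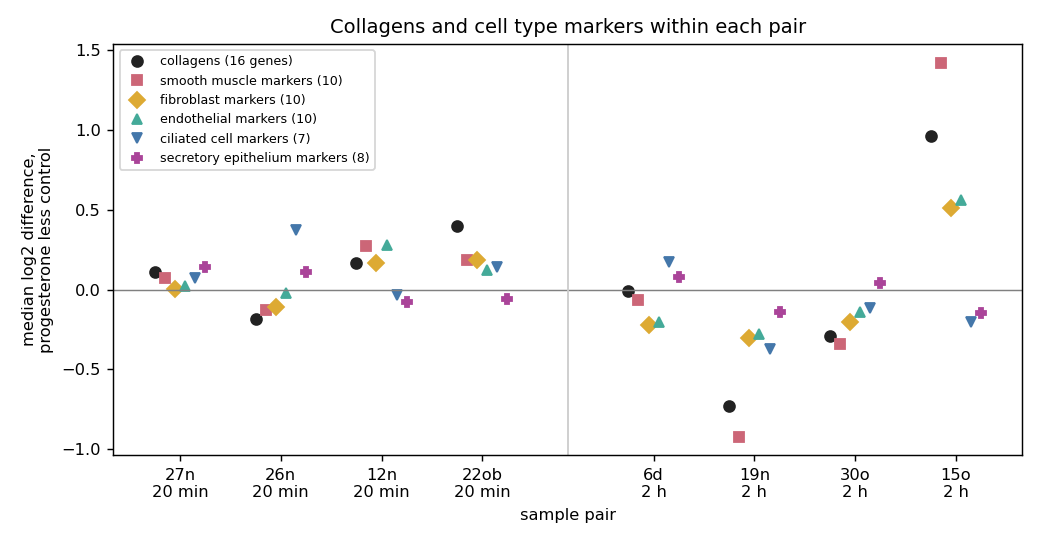
Median difference in log2 signal between progesterone and control (y axis) in each pair (x axis) for the 16 detected collagens and for 5 lists of cell type markers, with the number of genes in the legend and points set apart sideways for legibility. Collagens and smooth muscle markers are lowest in pair 19n (-0.73 and -0.92) and highest in pair 15o (0.96 and 1.42). Fibroblast and endothelial markers are also lowest in 19n (-0.31 and -0.28) and highest in 15o (0.51 and 0.56).

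Within the groups, single samples held most of the extreme values. In the 2 h controls, sample 15o had the lowest value of its group for 15 of the 16 collagens and sample 6d the highest for 14. With progesterone at 2 h, sample 19n had the lowest value for 13 and 6d the highest for 12. Pair 6d was thus high in both media, and its median difference was -0.01. Col1a1 read 11.06, 10.47, 9.70 and 8.07 in the controls 6d, 19n, 30o and 15o and 11.001, 9.25, 9.28 and 9.59 with progesterone. At 20 min it read 11.67, 12.30, 9.80 and 10.97 in the controls 27n, 26n, 12n and 22ob and 11.83, 12.05, 10.21 and 11.42 with progesterone. Here the pairs kept their order in both media, with 26n high and 12n low. Sample 12n was the lowest of its group for 12 collagens in the controls and for 14 with progesterone, and 26n was the highest for 13 and 12. Col3a1, Col4a1 and Col6a1 followed the same order of samples in the 2 h controls.

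**Figure D4:**
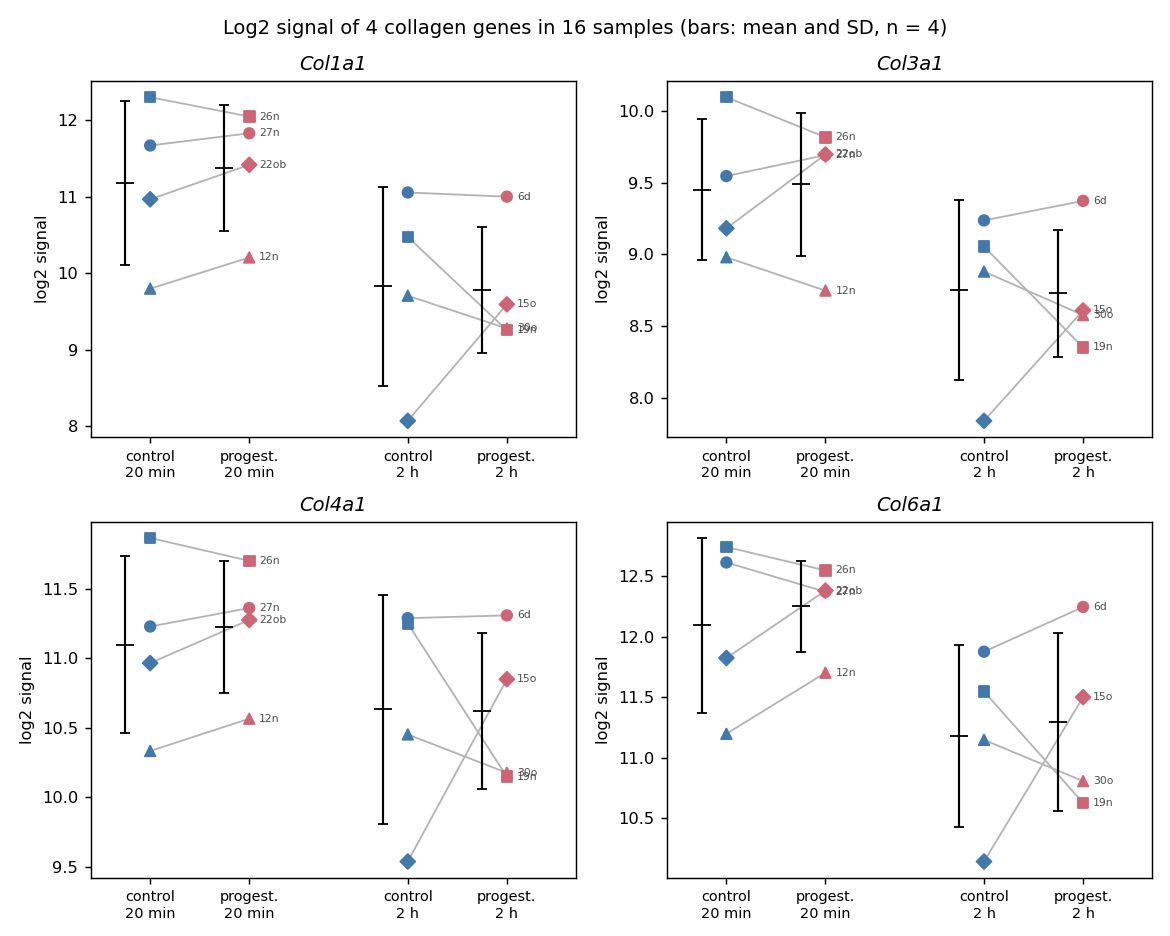
Log2 signal (y axis) of Col1a1, Col3a1, Col4a1 and Col6a1 in each of the 16 samples, by group (x axis), with points, lines and bars as in the plot of hydroxylase genes. In the 2 h controls sample 15o is lowest for all 4 genes, at 8.07 for Col1a1.

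From 20 min to 2 h the collagens lay lower in both media, with few calls. In the controls 15 of the 16 detected collagens were lower at 2 h, with a median of -0.59, but limma called none of them. Of the 40 genes it called 1 (2.5%), P4ha2, as lower, while 12.4% of all genes were called (5.92% as lower). An unadjusted p under 0.05 was found for 4 of the 40 (10%, P4ha1, P4ha2, Lepre1 and Col9a2), against 27.1% of all genes. In the progesterone samples all 16 were lower, with a median of -0.78. In all, 4 of the 40 genes (10%) were called, all as lower, namely Col1a1, Col16a1, Col14a1 and Lepre1. Of all genes 16.3% were called, 8.76% as lower. An unadjusted p under 0.05 was found for 16 of the 40 (40%), against 30.7% of all genes. Groups did not overlap, with 2 h lower, for 3 of the 40 (7.5%, Col14a1, Col2a1 and Lepre1), against 11% of all genes. Whether these shares differ was not tested. The medians over all genes were -0.02 in both media. Whether the decline differed between media is the comparison of progesterone effects above, where no collagen passed the test.

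Col1a1 fell by 1.60 in the progesterone samples (95% confidence interval -2.62 to -0.57, limma adjusted p = 0.0439), and in the controls its difference was -1.36 (-2.86 to 0.14, adjusted p = 0.243). Col16a1, a fibril-associated collagen, read 11.70, 11.49, 11.06 and 11.39 at 20 min and 11.19, 10.27, 10.37 and 10.82 at 2 h with progesterone. It fell by 0.75 (-1.20 to -0.29, adjusted p = 0.0349), with 1 sample of 2 h above the lowest of 20 min. In the fit of all 16 samples with the pair as a random block neither Col1a1 nor Col16a1 was called (adjusted p = 0.0794 and 0.0762), nor was either with the lenient filter (0.066 and 0.0515) or with no filter (0.0706 and 0.055). Col14a1, also fibril-associated, fell by 0.26 (-0.42 to -0.11, adjusted p = 0.0327) near the background, since it was detected on 11 of 16 arrays. After normexp its difference was -0.86 and without normalization -0.43, both with a call. Lepre1 read 7.75, 7.79, 7.70 and 7.68 at 20 min and 7.55, 7.52, 7.52 and 7.55 at 2 h with progesterone. It fell by 0.19 (-0.31 to -0.07, adjusted p = 0.0419), and its 3 probes gave -0.21 to -0.10. Without normalization it differed by -0.50 with a call, and after normexp by -0.38 without a call (adjusted p = 0.054). Each of these calls was lost when any of the samples 27n, 26n, 22ob, 19n, 30o or 15o was left out, and that of Lepre1 also without 12n (adjusted p = 0.0694) and without 6d (0.0577). In all, 10 genes were called without 12n and 14 without 6d, Col1a1, Col16a1 and Col14a1 among them.

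Other chains gave similar estimates without a call. Col6a1 differed by -0.92 in the controls and -0.96 in the progesterone samples (adjusted p = 0.204 and 0.0812), and another bright probe of the gene gave -0.51 and -0.62. A probe near background, detected on 7 arrays and with no definition, gave 0.01 and 0.08. Col5a1 differed by -0.77 and -0.93 (adjusted p = 0.348 and 0.0627), and Col12a1 by -0.57 and -0.84 (0.265 and 0.111). Col4a6, a chain of smooth muscle basement membranes, differed by -0.43 and -0.65 (0.220 and 0.0504). Col18a1 gave 0.08 and -0.11 and was the only detected collagen not lower in the controls, and its 3 kept probes disagreed in sign in both media. Without the control 15o the median over the 16 collagens in the controls was -0.27, and 15 were still lower.

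Of the enzymes, Serpinh1 differed by -0.41 in the controls (-0.96 to 0.14) and -0.43 with progesterone (-0.73 to -0.14, limma adjusted p = 0.0547), Loxl1 by -0.34 and -0.45, Lox by -0.15 and -0.40, P4hb by -0.14 and -0.18, Plod1 by -0.12 and -0.09, Plod2 by -0.01 and 0.08 and Plod3 by 0.24 and -0.10, none with a call.

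**Figure D5:**
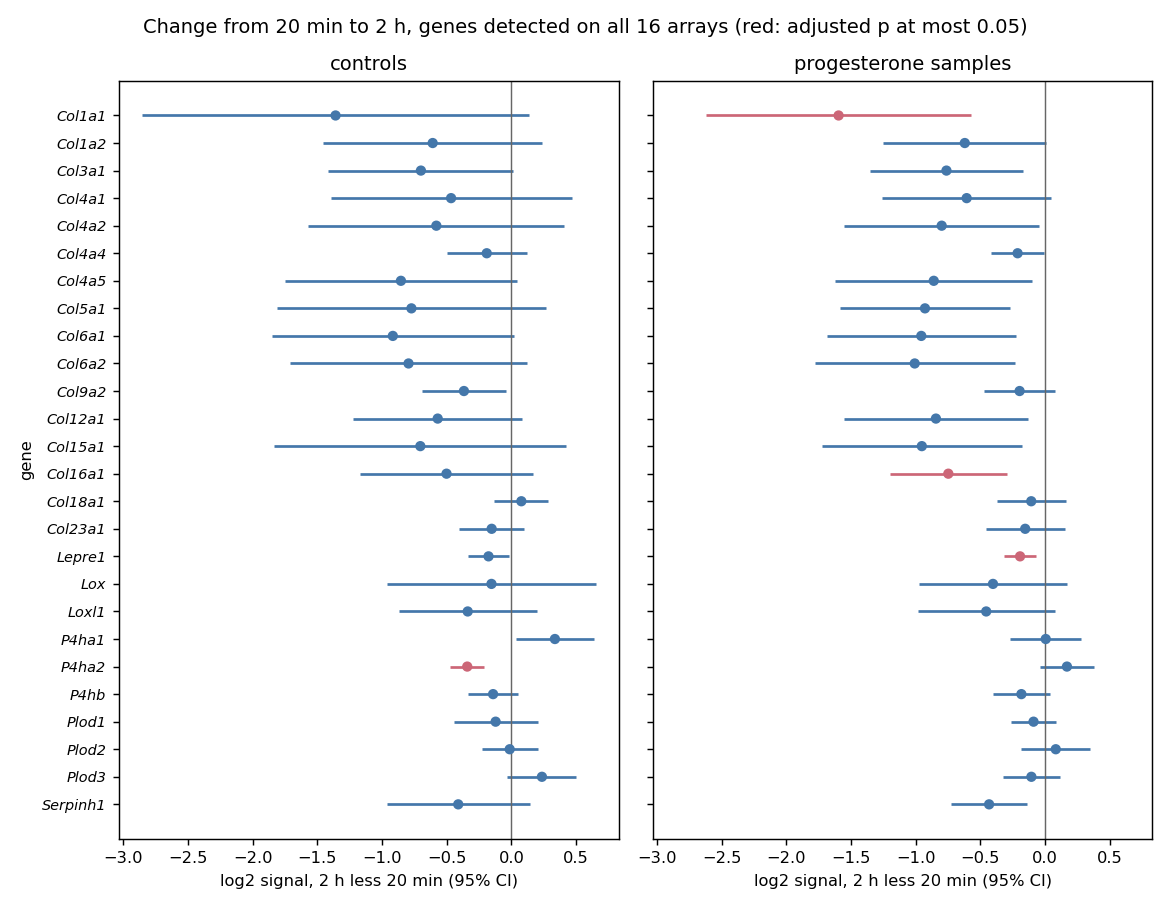
Difference in log2 signal between 2 h and 20 min (x axis) with its 95% confidence interval for the 26 genes detected on all 16 arrays, in controls (left) and progesterone samples (right), where red marks a limma adjusted p of at most 0.05. Collagens lie left of 0 in both panels except Col18a1 in the controls, and P4ha2 is the only gene in red on the left.

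Related genes were counted from lists that hold none of the 40, beside 6.51% of all genes called higher and 5.92% called lower in the controls and 7.59% and 8.76% in the progesterone samples. Of 13 other genes of procollagen folding and processing, limma called 1 higher at 2 h in the controls, Sec24d of the transport vesicle coat (0.44, adjusted p = 0.0332), and 1 higher and 5 lower in the progesterone samples. The lower ones included Glt25d1, a collagen galactosyltransferase (-0.55, adjusted p = 0.00144), Leprel2, a prolyl 3-hydroxylase (-0.60, 0.00259), and Sparc, a collagen-binding matrix protein (-0.95, 0.0227). Of 16 proteoglycans and glycoproteins that bind fibrils, 2 fell in the controls, Ogn by 0.90 (adjusted p = 0.0233) and Dcn by 0.74 (0.0291), and 3 fell with progesterone, where Prelp fell by 0.65 (0.0217). Of 6 collagen receptors, 0 were called in either medium, with medians of -0.10 and -0.14. None of these lists had a call for progesterone at 20 min or at 2 h.

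Several cell type and state lists changed over the same interval, and their part in the collagen values was not tested. Smooth muscle markers had medians of -0.52 in the controls and -0.64 with progesterone, with 0 and 1 of 10 called (Lmod1, -0.76, adjusted p = 0.0146). Their level per sample, as the mean deviation of the genes from their own means, ranged from -0.30 to 0.54 in the 20 min controls and from -1.46 to 0.56 in the 2 h controls. Fibroblast markers had medians of -0.14 and -0.26, with 0 called in the controls and 1 higher and 1 lower of 10 with progesterone. Of 8 secretory epithelium markers 5 rose in each medium, led by Cldn4 with 4.14 in the controls and 3.82 with progesterone. Of 7 ciliated cell markers none was called. Of 12 genes induced by hypoxia 6 rose in the controls and 8 with progesterone, among them Ndrg1 by 2.55 and 2.28. In the controls P4ha2 differed by -0.34 with a call and P4ha1 by 0.34 without a call (limma adjusted p = 0.154). In the progesterone samples P4ha2 differed by 0.17 and P4ha1 by 0.006, without a call. Of 12 immediate early genes 5 fell and 1 rose in the controls and 6 fell with progesterone. The blood, fat, mesothelium, skeletal muscle, endothelial and ovary lists held at most 1 call each in either medium.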

How the data were processed

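RNA of 16 samples was measured on Illumina MouseRef-8 v2 BeadChips, with 1 array per sample. The file deposited by the authors gives, for 25697 probes per array, the bead-summarized intensity from GenomeStudio, with no background subtraction or normalization, and a detection p-value for each probe, in steps that give 798 negative controls per array. Mapping the headers to samples leaves 0 columns without a sample. Between 13222 and 14267 probes per array had a detection p under 0.05. Chip and position of the arrays are not given in the sources used here, and the number of arrays limits the precision.

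The intensities were quantile-normalized over 16 arrays and converted to log2 with limma 3.58.1 in R 4.3.3 (data.table version 1.17.8). Probes with a detection p under 0.5 on at least 13 arrays were kept. Progesterone was compared with control by lmFit and eBayes, blocked on the pairs, the effects at both times in 1 fit with 8 pairs as blocks, and times within a medium without a block, since no pair spans both times. Benjamini-Hochberg adjustment ran over 16848 probes, with a threshold of 0.20 for progesterone, following the q-value of the study, and 0.05 for time. Shares of all genes are over 12426 genes. The scripts were tested on simulated data. Python 3.11.15 with matplotlib 3.10.9 drew the plots.

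Samples sharing a code deviated together from their group means (mean correlation 0.449 at 20 min, 0.35 to 0.55; 0.294 at 2 h, 0.000493 to 0.652), and the methods state that samples were taken as pairs. They give 6 tubes of 3 animals per sample and also 1 tube of each mouse per medium, which cannot both hold, so whether partners share mice is open. The p-values measure the spread between pools.

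The genes and the 16 other lists were chosen with earlier results of these data known. Named by rule were the detected enzymes and the chaperone, Col1a1, Col1a2, Col3a1, Col4a1 and Col4a2, and the 5 genes with the smallest p in each of the 5 comparisons, with all called genes, and at most 3 genes of another list. Col6a1, Col9a1 and other genes outside it are named for a count or a figure and were chosen after their values were seen. Alternatives were no normalization, normexp, other filters, the mean of a gene's probes, probes with a definition, a joint fit, no block, paired SAM with 16 sign changes, and leaving out each pair or sample.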

Additional observations from a re-analysis of the deposited data

Results flagged for a closer look

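P4ha1 in the 20 min control of pair 26n, at 8.20, stood far from the other controls of its group, which lay between 7.63 and 7.67, and its progesterone partner was also high at 8.21. Col3a1 in the 20 min progesterone sample of pair 12n, at 8.75, stood below the others, which lay between 9.69 and 9.82, and its control partner was the lowest of the controls. Of 96 groups of 4 samples tested for such a sample, 2 were marked, where chance gives about 4.8.

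P4ha1 and Col9a1 were higher with progesterone in all 4 pairs of 20 min and lower in all 4 pairs of 2 h. The difference between the effects was -0.33 for P4ha1 (limma, unadjusted p = 0.011) and -0.0849 for Col9a1 (unadjusted p = 0.29), and neither passed the test after adjustment (adjusted p = 0.999 for both). Col9a1 was detected on 6 of 16 arrays.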

How the results depend on the processing

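Progesterone called 0 of the 40 genes at 20 min under all 14 alternatives. At 2 h the count of 0 became 1, P4ha2, with all 16 samples in 1 fit (difference 0.43, adjusted p = 0.0485, limma) and with paired SAM (0.43, q = 0.0833), and stayed 0 otherwise. The P4ha2 difference at 2 h was 0.35 to 0.49 with a pair left out and 0.68 after normexp. Without the replicate block, that is without the pairing of samples, the P4ha2 difference was 0.43 (adjusted p = 0.99998) and 0 genes were called at 20 min, at 2 h and for the difference between times. That last count ran from 0 to 2 with a pair left out, with P4ha2 and Col15a1 called without 15o. In the controls over time the count of 1 became 8, all lower, without normalization between arrays and ran from 1 to 2 with a sample left out, P4ha1 being added without the 20 min control 26n. P4ha2 was called in all 16 alternatives (adjusted p 0.00352 to 0.0225). In the progesterone samples the count of 4 became 27, all lower, without normalization, 2 with a lenient filter and 2 with no filter, and ran from 0 to 14 with a sample left out. Without normalization the median of all genes was 0.13 with progesterone at 20 min, and -0.18 and -0.25 over time in controls and progesterone samples, and the medians of the 40 genes over time were -0.39 and -0.48. After normexp those medians were -0.40 and -0.43, against -0.15 and -0.19 as reported. No alternative reversed the direction of the P4ha2, P4ha1, Plod3, Col1a1, Col16a1, Col14a1 or Lepre1 values above, but the median of the 16 collagens at 2 h, -0.02, was above 0 without 6d, 19n or 30o, and the median of the 40 genes at 2 h was 0.05 without normalization, where that of all genes was 0.06, against -0.02. Without normalization Plod3 at 20 min was 0.37, against 0.19, with no call.

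Over all probes, the calls differed by more than 1.5 times in places: at 2 h 1 became 7 in the joint fit, 17 with SAM, 3 with the strict filter, 12 without 15o, 2 without 19n and 0 without normalization, with the lenient filter or none, and without 6d or 30o. At 20 min SAM called 1 where limma called 0. For the difference between times 1 became 31 without 15o, 2 without 19n and 0 in 8 other settings. Over time in the controls 1911 became 1164 without the 2 h control 19n and 1268 without 30o, and in the progesterone samples 2524 became 6654 without normalization. The cause was not tested. No paired analysis was possible for time because no pair spans 20 min and 2 h. Of the 14 collagens not detected on every array all but Col4a6 had mean log2 signals of 6.87 to 7.25, close to background, where a difference in signal is compressed.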
